A study of Mus musculus with 10 samples.

Results

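The transcripts described here are Bbs10, Amn1, Lpar6, AI480526, Mtcp1 and F630028O10Rik, 6 of the 57010 gene identifiers in the deposited table and 6 of the 12455 genes that passed a filter on low values. They were chosen by their normalized read counts in these same libraries, as transcripts lower after confinement, so their falls are given as a description and not as a test. Their mean level in confined cells was between 20.8% (Bbs10) and 64.0% (Amn1) of that in unconfined cells in wild-type macrophages, and between 23.9% (Bbs10) and 42.9% (F630028O10Rik) in macrophages without WASp. Of the 6, 5 were found by their symbol in the deposited table, and AI480526 was found by its Ensembl identifier (ENSMUSG00000090086) through GENCODE M21 names. All 6 passed the filter, which asked for a mean of at least 10 over all libraries.

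Polyadenylated RNA was sequenced from macrophages grown out of mouse bone marrow in culture. The marrow donors were wild-type (WT) or lacked WASp (WKO), the actin regulator encoded by Was, and the cells had been cultured for 7 days in RPMI with 20 ng/mL macrophage colony-stimulating factor (MCSF). Confined cells were held at 3 µm of height for 1 h under silicone (PDMS) micropillars, and control cells were unconfined. There were 2 unconfined and 3 confined libraries of each genotype, each made from 5 ng of total RNA, and the labels do not say whether libraries of a group came from separate animals. P-values therefore measure the spread between these libraries, which may be technical.

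The 6 transcripts are of different kinds. Bbs10 encodes a chaperonin-like protein that acts with Mkks, Bbs12 and the CCT chaperonin in building the BBSome, a complex that moves membrane proteins of the primary cilium. Amn1 is named after the yeast antagonist of mitotic exit. Lpar6 encodes a receptor of the P2Y family for lysophosphatidic acid that signals through G12/13 proteins. Mtcp1 encodes a TCL1 family protein that binds AKT kinases. AI480526 is annotated as a long intergenic non-coding RNA. F630028O10Rik contains the hairpin of miR-223, a microRNA of myeloid cells known for restraining Nlrp3 and other inflammatory genes.

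Was was examined as the check of the labels. It stood at 1308 and 1639 normalized read counts in WT unconfined libraries, between 1570 and 1649 in WT confined ones, at 154 and 141 in WKO unconfined ones and between 96.9 and 125 in WKO confined ones. Every WKO library was below every WT library. Totals lay between 13295701 and 19329908 reads per library, and 3 reads, taken as the detection floor, equal between 2.35 and 3.59 normalized read counts. All 8 macrophage markers (Csf1r, Adgre1, Cd68, Itgam, Mertk, Fcgr1, Lyz2 and Cd14) were detected. The 6 transcripts had between 23 and 1188 reads per library, above the floor in all 10. Floors and counts cover counting error only, as the labels name no molecular identifiers to tell PCR copies apart.

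The promoter letters of 5 of the 6 are shown because these genes stood lower together. Each window runs from 250 bases before to 50 bases after the RefSeq gene start on GRCm38.p6, 5′ to 3′ on the gene's strand. The windows are chr10:111298429-111298728 (+) for Bbs10, chr6:149188646-149188945 (-) for Amn1, chr14:73237641-73237940 (+) for Lpar6, chrX:75416535-75416834 (-) for Mtcp1 and chrX:96239676-96239975 (+) for F630028O10Rik. Capitals mark matches to any of 10 motifs searched on both strands.
Bbs10: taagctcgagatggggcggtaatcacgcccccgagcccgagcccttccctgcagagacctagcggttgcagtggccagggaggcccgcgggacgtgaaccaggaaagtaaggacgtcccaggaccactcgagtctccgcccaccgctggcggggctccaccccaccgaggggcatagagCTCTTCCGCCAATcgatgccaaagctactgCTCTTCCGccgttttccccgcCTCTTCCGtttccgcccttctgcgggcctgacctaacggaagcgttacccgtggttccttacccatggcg
Amn1: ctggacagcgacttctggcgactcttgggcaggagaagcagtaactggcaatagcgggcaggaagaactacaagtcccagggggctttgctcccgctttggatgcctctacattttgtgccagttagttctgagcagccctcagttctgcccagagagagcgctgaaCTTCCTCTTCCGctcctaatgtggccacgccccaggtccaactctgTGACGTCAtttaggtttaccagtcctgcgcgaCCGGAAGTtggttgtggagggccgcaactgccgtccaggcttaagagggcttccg
Lpar6: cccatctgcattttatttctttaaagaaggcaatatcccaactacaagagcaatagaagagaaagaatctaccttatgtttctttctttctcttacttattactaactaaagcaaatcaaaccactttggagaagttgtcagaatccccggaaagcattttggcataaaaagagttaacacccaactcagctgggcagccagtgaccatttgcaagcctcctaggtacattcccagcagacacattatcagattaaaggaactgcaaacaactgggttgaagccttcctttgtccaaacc
Mtcp1: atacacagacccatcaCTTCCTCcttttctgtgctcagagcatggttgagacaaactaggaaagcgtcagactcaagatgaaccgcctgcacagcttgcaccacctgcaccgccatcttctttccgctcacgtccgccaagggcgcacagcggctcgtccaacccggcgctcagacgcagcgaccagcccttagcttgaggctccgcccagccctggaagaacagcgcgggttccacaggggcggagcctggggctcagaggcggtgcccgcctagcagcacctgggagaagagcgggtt
F630028O10Rik: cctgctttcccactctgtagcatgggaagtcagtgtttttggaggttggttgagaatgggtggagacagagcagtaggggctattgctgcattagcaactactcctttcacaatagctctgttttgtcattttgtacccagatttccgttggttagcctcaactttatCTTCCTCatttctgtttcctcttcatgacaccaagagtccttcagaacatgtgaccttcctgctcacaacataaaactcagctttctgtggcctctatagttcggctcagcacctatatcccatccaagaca

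The motifs were chosen after these sequences had been seen, and a match is a description of letters, not of a bound site. They were the cAMP response element TGACGTCA, the AP-1 site TGANTCA, the ETS site CCGGAAGT, the PU.1 core GAGGAAG, the pyrimidine-rich CTCTTCCG, the C/EBP half-sites TTGCNNAA, the NF-Y box CCAAT, the TATA box TATAAA, the kappaB motif and the CArG box. With the start base counted as 0, the Bbs10 window held CTCTTCCG from -71, -41 and -20, the first of them joined to a CCAAT from -63. The Amn1 window held the palindrome TGACGTCA from -37 to -30, the ETS site from -5, CTCTTCCG from -79 and, overlapping it on the other strand, the PU.1 core from -83 to -77. This core, which reads CTTCCTC on the printed strand, was also in the Mtcp1 window from -234 and in the F630028O10Rik window from -82. Of 32817 RefSeq promoter windows of the same length, 1.41% held CTCTTCCG, 1.79% the cAMP response element, 3.89% the ETS site, 13.6% the PU.1 core and 37.4% the CCAAT box.

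No motif was in all 5 windows, and none of the 10 was in the Lpar6 window. The AP-1 site, the C/EBP half-sites, the TATA box, the kappaB motif and the CArG box, found in 7.81%, 10.8%, 13.6%, 8.46% and 1.63% of all windows, were in none of the 5. The windows also differed in composition. Bbs10 had 64.7% GC with 27 CG dinucleotides and Mtcp1 62.3% with 20, whereas Lpar6 had 40.0% with 1 and F630028O10Rik 45.3% with 2. Amn1 lay between them at 57.3% with 14, and the median over all windows was 52.7% with 7.

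The mature miR-223 strands encoded in F630028O10Rik are shown with the seed, bases 2 to 8, in capitals, because the seed defines the targets of a microRNA. They come from the RefSeq entry and lie at chrX:96242842-96242864 and chrX:96242884-96242905 (GRCm38.p6, + strand).
mmu-miR-223-5p: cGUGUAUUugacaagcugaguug
mmu-miR-223-3p: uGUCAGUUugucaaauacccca

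The row of Mir223 itself was at 0 reads in all 10 libraries. Libraries of polyadenylated RNA do not measure mature microRNAs, so the values of F630028O10Rik are those of the transcript that contains the hairpin. The level of miR-223 was not measured.

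Bbs10 (ENSMUSG00000035759, chr10:111298679-111301727 on GRCm38, + strand) was the transcript that stood lowest relative to unconfined cells. Its normalized read count was 159 and 123 in WT unconfined libraries (replicates 1 and 3) and 35.4, 34.0 and 18.5 in WT confined ones (replicates 2, 3 and 6). In WKO cells it was 89.8 and 180 unconfined (replicates 1 and 3) and 36.9, 27.4 and 32.4 confined (replicates 1, 2 and 5). Every confined library was below every unconfined one in both genotypes, and both unconfined WKO libraries were further apart than any other pair of one group. The means were 141 ± 25.3 (SD, n = 2) and 29.3 ± 9.38 (SD, n = 3) in WT and 135 ± 63.5 (SD, n = 2) and 32.2 ± 4.75 (SD, n = 3) in WKO. Confined cells thus held 20.8% of the unconfined mean in WT and 23.9% in WKO. As log2(value + 1), a scale that shrinks differences of low counts, the difference was -2.27 (SE 0.386) in WT and -1.96 (SE 0.386) in WKO.

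Mtcp1 (ENSMUSG00000031200, chrX:75410444-75416588, - strand) stood at 149 and 133 in WT unconfined and at 64.3, 32.8 and 38.6 in WT confined libraries. In WKO it stood at 103 and 122 unconfined and at 50.2, 43.2 and 47.9 confined. The groups did not overlap in either genotype, and the confined WKO libraries were close together. The confined mean was 45.2 ± 16.7 (SD, n = 3) against 141 ± 11.1 (SD, n = 2) in WT, or 32.0%, and 47.1 ± 3.60 (SD, n = 3) against 112 ± 13.6 (SD, n = 2) in WKO, or 42.0%. The log2 difference was -1.68 in WT and -1.23 in WKO (SE 0.308 each).

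F630028O10Rik (ENSMUSG00000078122, chrX:96239926-96243636, + strand, annotated as antisense) stood at 309 and 332 in WT unconfined and at 93.2, 134 and 94.8 in WT confined libraries. In WKO it stood at 597 and 312 unconfined and at 137, 244 and 204 confined. Confined libraries were again below unconfined ones in both genotypes, and replicate 1 of the unconfined WKO libraries was the highest of all 10. The confined mean was 107 ± 23.0 (SD, n = 3) against 320.4 ± 16.5 (SD, n = 2) in WT and 195 ± 54.0 (SD, n = 3) against 454 ± 202 (SD, n = 2) in WKO. These are 33.5% and 42.9% of the unconfined means, with log2 differences of -1.59 and -1.18 (SE 0.304 each). The WKO difference was -0.71 without the unconfined replicate 1 and -1.65 without the unconfined replicate 3.

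Lpar6 (ENSMUSG00000033446, chr14:73237895-73243294, + strand) had more reads than the other 5, between 335 and 1188 per library. Its normalized read count was 841 and 1116 in WT unconfined and 474, 592 and 321 in WT confined libraries, and in WKO 947 and 1226 unconfined and 378, 535 and 401 confined. The confined and unconfined libraries did not overlap in either genotype. The confined means, 462 ± 136 in WT and 438 ± 84.5 in WKO (SD, n = 3 each), were 47.3% and 40.3% of the unconfined means of 978 ± 195 and 1087 ± 198 (SD, n = 2 each). The log2 difference was -1.11 in WT and -1.31 in WKO (SE 0.249 each), and the latter was -0.81 when a replicate block and a GC and length correction were fitted together.

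AI480526 (chr5:123133723-123141666, - strand) stood at 342 and 277 in WT unconfined and at 180, 172 and 100.4 in WT confined libraries. In WKO it stood at 321 and 413 unconfined and at 113, 125 and 79.1 confined. Again no confined library reached an unconfined one of its genotype. The confined means were 151 ± 43.9 in WT and 106 ± 23.9 in WKO (SD, n = 3 each), against 309.7 ± 45.7 and 367 ± 65.3 (SD, n = 2 each), or 48.7% and 28.8%. The log2 difference was -1.07 in WT and -1.80 in WKO (SE 0.285 each).

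Amn1 (ENSMUSG00000068250, chr6:149157147-149188712, - strand) showed the smallest difference of the 6 in WT cells. It stood at 219 and 146 in WT unconfined and at 122, 140 and 89.2 in WT confined libraries. The gap between the lower unconfined and the highest confined WT library was therefore small, 146 against 140. In WKO cells it stood at 192 and 197 unconfined and at 54.9, 89.5 and 87.5 confined, with a wide gap. The confined means were 117 ± 25.6 in WT and 77.3 ± 19.4 in WKO (SD, n = 3 each), against 183 ± 52.0 and 195 ± 3.39 (SD, n = 2 each). These are 64.0% and 39.7%, with log2 differences of -0.63 and -1.36 (SE 0.289 each).

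**Figure D1:**
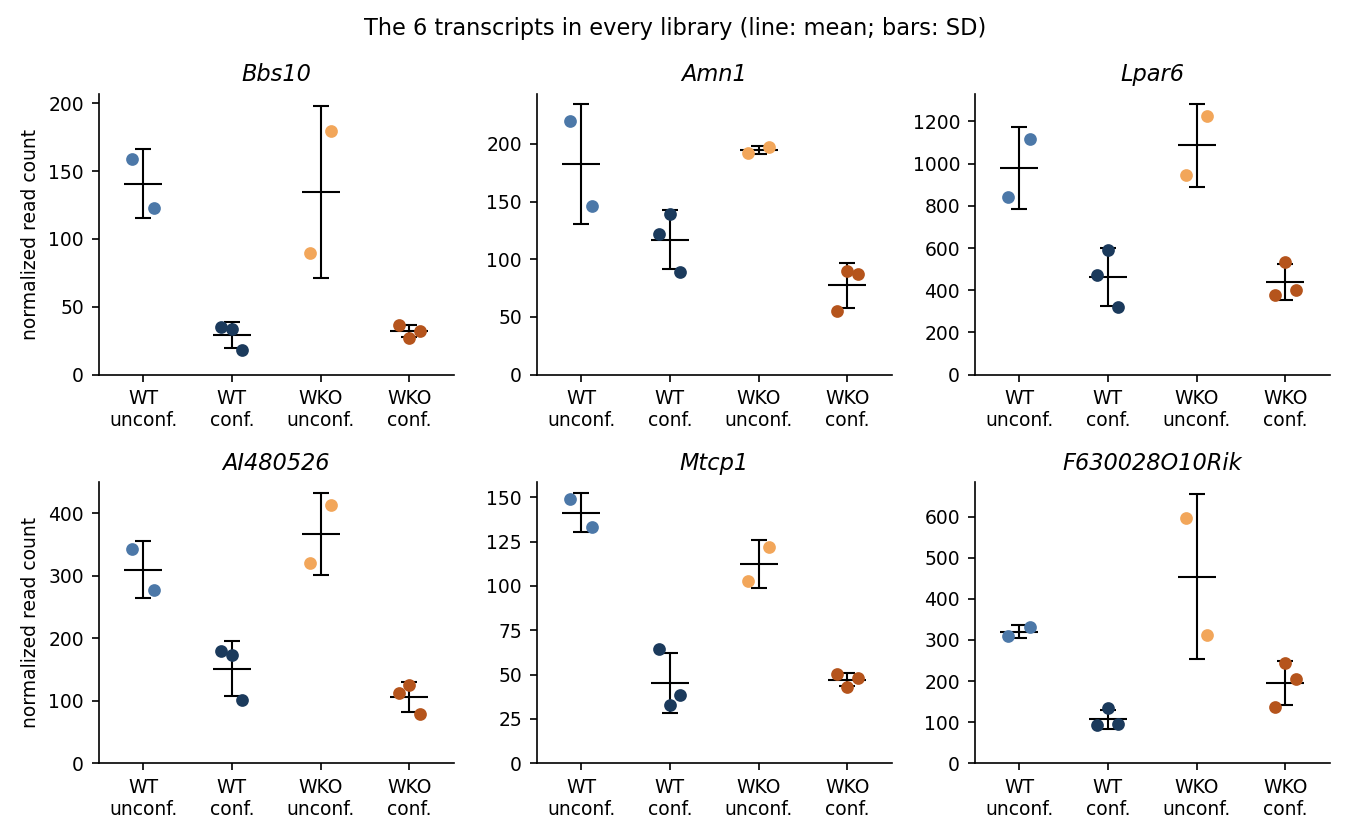
Each panel plots 1 transcript, with the normalized read count on the vertical axis and the 4 groups on the horizontal axis; points are libraries, the long line is the mean and the bars the SD. In all 6 panels the confined libraries of a genotype lie below its unconfined libraries, with the narrowest gap for Amn1 in WT (146 against 140).

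All 6 transcripts had no overlap between confined and unconfined libraries in both genotypes, a pattern in this direction that 17.7% of tested genes had in WT and 13.8% in WKO. With limma and a Benjamini-Hochberg threshold of 0.05 over all genes, 33 genes (0.265%) were called lower after confinement in WT and 29 (0.233%) in WKO. Bbs10, Mtcp1 and F630028O10Rik were among the former and Bbs10, AI480526, Amn1 and Lpar6 among the latter. Called lower in both were 6 genes (0.0482%), of which Bbs10 is 1. Since the transcripts were picked in these contrasts, nothing is read from those counts. The WT count of 3 became 0 without WT unconfined replicate 1, WT unconfined replicate 3 or WT confined replicate 6, and 1 without WT confined replicate 3. The WKO count of 4 became 0 without WKO unconfined replicate 1 or replicate 3, and 2 without WT unconfined replicate 1.

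The choice is stated only as one of falls after confinement. Each of the 6 was among the called genes with a mean of at least 50 and the deepest falls in WT or in WKO. Not every such gene is among the 6. Cd79b (-1.76 in WT) and ENSMUSG00000121184 (-1.64 in WT and -1.87 in WKO), which has no symbol, lay as deep and were not chosen. The shallowest value of a called transcript of the 6 was -1.59 in WT (F630028O10Rik), where the next such gene, Abi3, stood at -1.47. In WKO it was -1.31 (Lpar6), where the next, Dynlt1c, stood at -1.29. Among all 12455 genes ordered from the lowest value, Bbs10 was number 63 in WT and number 71 in WKO, and Amn1, number 956 in WT and number 224 in WKO, differed most in place between the genotypes. The median over the 6 was -1.35 in WT and -1.33 in WKO, against -0.01 over all tested genes in each. For reference, Tnf, a cytokine gene raised by confinement, had a log2 fold change of 6.47 in WT and 6.46 in WKO (limma adjusted p 0.00260 and 0.00132), and the chemokine gene Cxcl1 one of 8.48 and 5.77 (limma adjusted p 2.06e-04 and 0.00120).

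In bulk RNA, fewer cells of a type and less RNA per cell cannot be told apart. Marker sums add normalized read counts, so the most abundant genes of a list weigh most, and single markers are not given here. In WT, the summed stromal markers (12 of 12 detected) were 3107 to 4166 unconfined and 1760 to 2660 confined, and the dendritic markers (4 of 5 detected, Xcr1 at 0) 44.6 to 48.9 and 11.2 to 39.6, so both lists moved in the same direction as the 6 transcripts. The T and NK markers (4 of 6 detected, Trac at 0) did so too, at 2.85 to 18.2 and 1.17 to 2.14, the latter under the floor of 3 reads. In WKO the T and NK markers overlapped, at 8.26 to 8.88 unconfined and 0 to 11.0 confined. The macrophage markers went the other way in WKO, higher without overlap, at 241895 to 250579 unconfined and 252962 to 314561 confined. In WT the macrophage markers overlapped, at 206120 to 208283 unconfined and 179561 to 208102 confined. In WKO the B lineage markers (6 of 8 detected, Igll1 at 0) were lower without overlap, at 137 to 191 unconfined and 95.9 to 123 confined, whereas in WT they overlapped, at 87.4 to 200 and 25.7 to 94.3. The stromal and dendritic lists overlapped between conditions in WKO, at 5242 to 5276 and 3493 to 14895 for stromal and 71.2 to 130 and 60.4 to 90.5 for dendritic markers. The neutrophil and progenitor markers (12 of 12 detected) overlapped in both genotypes, at 11904 to 13149 unconfined and 5452 to 12820 confined in WT and at 26873 to 32802 and 8536 to 30581 in WKO. The part of these cells in the differences was not tested.

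Counts per gene were divided by the length of the longest coding transcript, or of the longest one of a non-coding gene. The order of the 6 in WT unconfined cells was then AI480526 (182 normalized read counts per kb), Lpar6 (181), Amn1 (125), F630028O10Rik (98.4), Mtcp1 (88.7) and Bbs10 (51.3). All annotated exons together span 18886 bases in Amn1, 4725 in AI480526 and 4478 in Mtcp1, against 1457, 1697 and 1592 in the transcript used. The order holds for this choice of length only. AI480526 and Lpar6 overlapped between libraries on this scale, as did Amn1 and F630028O10Rik, whereas the other neighbours in the order did not. After confinement Bbs10 remained the lowest on this scale, at 10.7 per kb in WT and 11.7 in WKO, followed by Mtcp1 at 28.4 and 29.6. At the upper end stood AI480526 (88.9), Lpar6 (85.6) and Amn1 (80.3) in WT, and Lpar6 (81.1), AI480526 (62.3) and F630028O10Rik (59.9) in WKO.

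The genes around the 6 are too few for a count of calls to set them apart from other genes. The overlapping genes and the nearest tested gene on each side gave 14 tested genes. The nearest gene was not always close, and Eda2r lies 1090204 bases from F630028O10Rik. Of the 14, 0 were called in either confinement contrast by limma, against 1.16% of all genes in WT and 1.72% in WKO. Their log2 fold changes after confinement ran from -0.78 to 1.20 in WT (median 0.13) and from -0.63 to 0.66 in WKO (median 0.01). Resf1, 120702 bases from Amn1, was the 1 of the 14 with an unadjusted limma p under 0.05 in each genotype (0.71 in WT and 0.66 in WKO). Of all genes, 12.2% had such a p in WT and 14.1% in WKO. Resf1 was higher in both, as 6.69% and 8.56% of all genes were. Among the 14, edgeR and DESeq2 also called 0 after confinement. Between WKO and WT in confined cells 1 of the 14 was called, Rcbtb2, 30052 bases from Lpar6 (log2 fold change 0.62, limma adjusted p 0.0277). This call was kept in 13 of 22 alternatives and lost without any of the WKO unconfined or WT confined libraries.

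Lpar6 is a single-exon gene within the locus of Rb1, the retinoblastoma tumour suppressor, on the opposite strand, and 408 bases of exon are shared. Rb1 had 1140 ± 81.6 (SD, n = 2) normalized read counts in WT unconfined and 1226 ± 47.7 (SD, n = 3) in WT confined cells, and 1585 ± 122 (SD, n = 2) and 1590 ± 395 (SD, n = 3) in WKO. Its log2 fold change was 0.11 in WT (limma adjusted p 0.859) and -0.02 in WKO (limma adjusted p 0.972), beside -1.11 and -1.31 for Lpar6. Because the use of strand in counting is not given in the sources used here, reads of the shared bases cannot be assigned, and the count of Lpar6 is uncertain to that extent. Stretches of the Lpar6 transcript matched 27 other genes, Rb1 among them, at 95% identity or more, none over a larger share than the 7.65% of Rb1.

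Mtcp1 shares 570 bases of exon on the same strand with Cmc4, which encodes a small mitochondrial protein, and the RefSeq promoter windows of both are identical. Cmc4 had between 7 and 31 reads per library, with log2 fold changes of -0.78 in WT (limma adjusted p 0.651) and -0.43 in WKO (limma adjusted p 0.787). How reads of the shared exons were divided is not known, so the split between Mtcp1 and Cmc4 is uncertain. Brcc3, a deubiquitinase gene that starts 40 bases away and runs in the opposite direction, had a log2 fold change of 0.08 in WT (limma adjusted p 0.902) and 0.19 in WKO (limma adjusted p 0.698).

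AI480526 overlaps exons of the annotated non-coding genes Gm38102 (1525 bases) and 4932422M17Rik (1622 bases) on the opposite strand. Those genes had at most 1 and 3 reads in any library, while AI480526 had between 66 and 400, and without strand their reads cannot be told apart. Setd1b, a histone methyltransferase gene that starts 527 bases away on the opposite strand, had log2 fold changes of -0.21 in WT and 0.0011 in WKO. Rhof, 1031 bases from AI480526 on its strand, had 1.20 in WT and -0.26 in WKO (limma adjusted p 0.461 and 0.886). It had between 15 and 57 reads per library. Around the other 3, Osbpl8 (1430 bases before Bbs10) had 0.18 and 0.13, Etfbkmt (5976 bases from Amn1) -0.16 and -0.63, and Msn (71374 bases before F630028O10Rik) 0.18 and 0.18. Bbs10 and Amn1 overlap no other gene here, and no other transcript matched theirs over at least 100 bases at 95% identity or more.

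**Figure D2:**
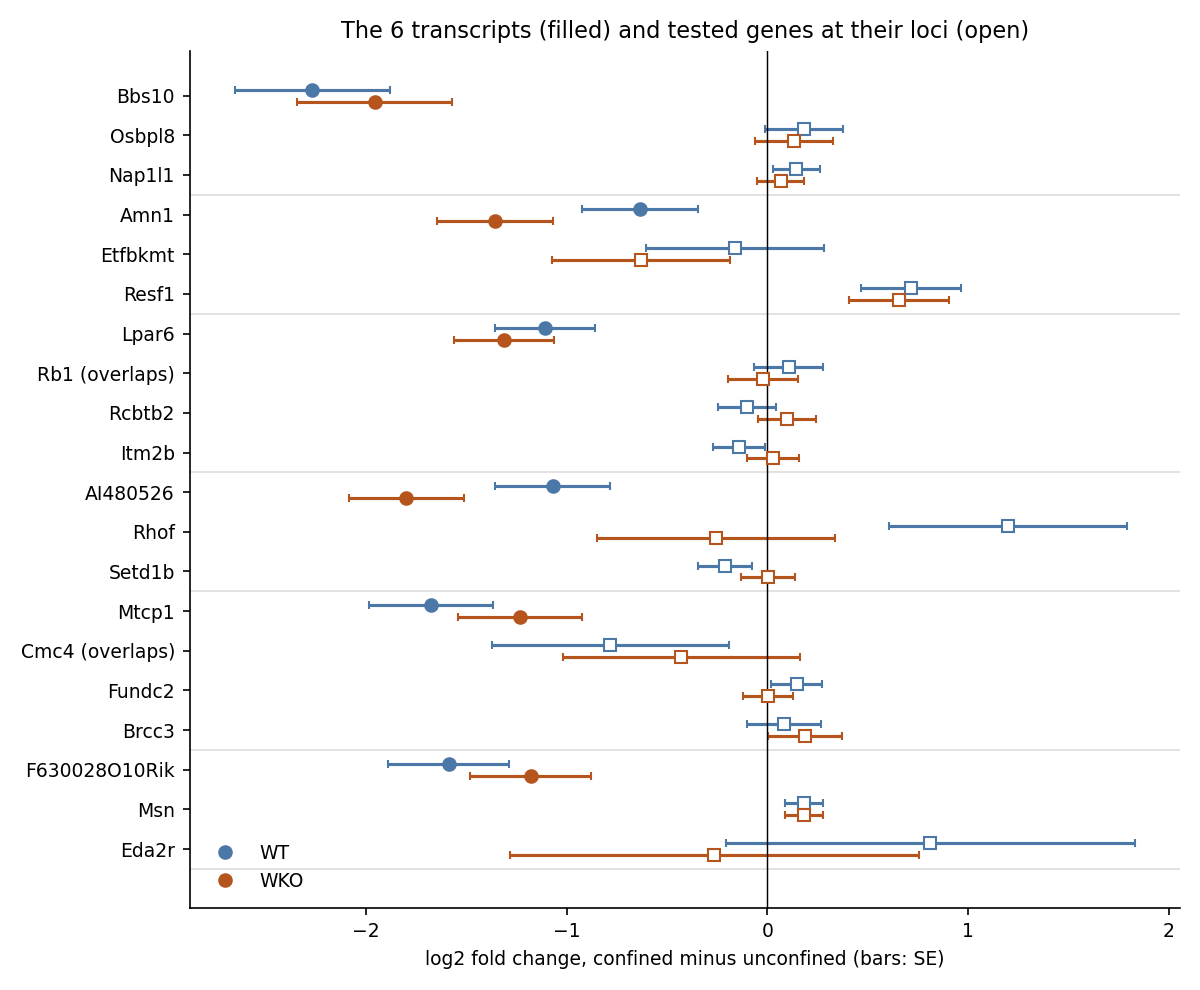
The log2 fold change of confined minus unconfined cells (horizontal axis, bars are SE) for the 6 transcripts (filled circles) and the 14 tested overlapping or nearest genes (open squares), WT in blue and WKO in orange. The filled circles lie between -2.27 and -0.63, and the open squares between -0.78 and 1.20.

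Transcript features that did not enter the choice were also compared. The longest coding transcript, or the longest one of a non-coding gene, was used. Lpar6 has 1 exon, Bbs10 and F630028O10Rik 2, Mtcp1 5, AI480526 6 and Amn1 7, against a median of 8 (quartiles 4 and 14) over 12315 tested genes. GC content was 36.4% in Lpar6, 37.6% in F630028O10Rik, 38.6% in Amn1 and 44.9% in Bbs10, all under the lower quartile of 45.0%, and 48.4% in Mtcp1 and 53.0% in AI480526. The pentamer ATTTA, the core of AU-rich elements that are known for shortening the life of cytokine mRNAs, occurred 5.49 times per kb in Amn1, 3.28 in Bbs10, 3.07 in F630028O10Rik, 2.51 in Mtcp1, 2.04 in Lpar6 and 0.589 in AI480526.

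The median of all tested genes was 0.823 ATTTA per kb (quartiles 0.296 and 1.53), so 5 of the 6 were above the upper quartile. The longer motif TTATTTATT was in Amn1 once and in none of the others, against 8.84% of tested genes. Among all genes called lower after confinement the median ATTTA density was 0.560 per kb in WT (32 genes with an annotated transcript) and 0.727 in WKO (26), below that of all tested genes, and among those called higher it was 1.10 in WT (111) and 1.09 in WKO (184). No test was made of these features.

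**Figure D3:**
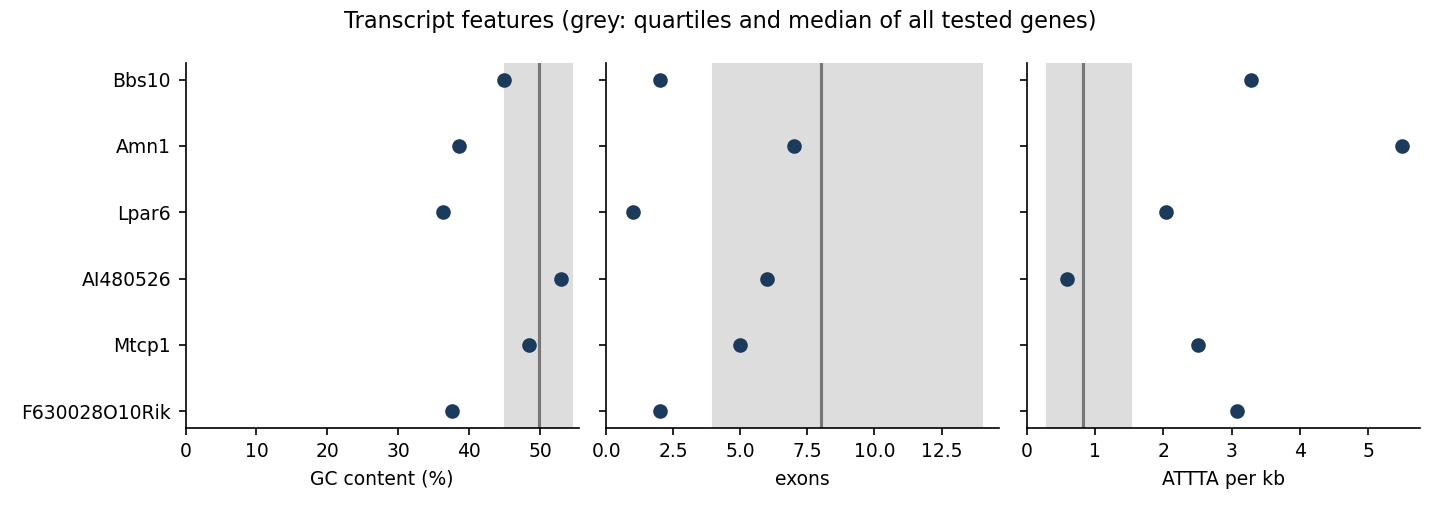
GC content (%), number of exons and ATTTA pentamers per kb (horizontal axes) for each of the 6 transcripts (points), with the quartiles (grey band) and median (grey line) of 12315 tested genes. For ATTTA per kb, 5 points lie right of the band and AI480526 lies inside it at 0.589.

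The effect of WASp loss was not itself used to choose the 6, but it was measured in the same libraries. A transcript chosen for a fall in 1 genotype is more likely to stand low in the confined, or high in the unconfined, libraries of that genotype, so these tests are not free of the choice. In unconfined cells none of them passed the limma threshold, or that of edgeR or DESeq2, between WKO and WT (0 of 6, against 0.145% of all genes), and none had an unadjusted p under 0.05, which 9.6% of genes had. The log2 fold changes were -0.13 for Bbs10 (SE 0.423, limma adjusted p 0.958), 0.12 for Amn1 (SE 0.317, limma adjusted p 0.951), 0.15 for Lpar6 (SE 0.272, limma adjusted p 0.925) and 0.24 for AI480526 (SE 0.312, limma adjusted p 0.885). For F630028O10Rik the value was 0.43 (SE 0.333, limma adjusted p 0.759), with 1 WKO library at 597 and the other inside the WT range. Mtcp1 was the only one of the 6 without overlap, at 103 and 122 in WKO against 133 and 149 in WT (log2 fold change -0.33, SE 0.338, limma adjusted p 0.835), an arrangement in this direction that 22.7% of genes had.

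In confined cells none of the 6 passed in limma or edgeR (0 of 6, against 2.59% of all genes), and 2 had an unadjusted p under 0.05, against 16.8% of all genes. F630028O10Rik had the largest difference, with 137, 244 and 204 in WKO against 93.2, 134 and 94.8 in WT, a log2 fold change of 0.84 (SE 0.272, limma adjusted p 0.135). The 3 WKO libraries were above the 3 WT libraries, though only by 137 against 134, and 10.7% of genes had no overlap in this direction. F630028O10Rik was called lower after confinement by limma only in WT, and a choice by its fall there favours low WT confined libraries. Its value passed the threshold in 4 alternatives. It was 0.87 with DESeq2 (adjusted p 0.0447), 0.90 with a GC and length correction in limma (adjusted p 0.0435), 1.07 with limma array weights (adjusted p 0.00751) and 1.07 without WKO confined replicate 1 (limma adjusted p 0.0456). Over all alternatives its adjusted p lay between 0.00751 and 0.479 and its log2 fold change between 0.66 and 1.07.

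Several marker lists were higher in WKO than in WT among confined libraries, as F630028O10Rik was. The macrophage markers summed to between 252962 and 314561 in WKO and between 179561 and 208102 in WT, the stromal markers to between 3493 and 14895 and between 1760 and 2660, and the B lineage markers to between 95.9 and 123 and between 25.7 and 94.3. The dendritic markers lay between 60.4 and 90.5 in WKO and between 11.2 and 39.6 in WT. The neutrophil and progenitor markers overlapped between the genotypes in confined libraries. Their sums were 23887, 30581 and 8536 in WKO confined replicates 1, 2 and 5, in which F630028O10Rik was 137, 244 and 204. In unconfined replicates 1 and 3 they were 32802 and 26873 in WKO and 11904 and 13149 in WT, without overlap. F630028O10Rik was 597 and 312 in those WKO libraries and 309 and 332 in those WT libraries. Macrophage, stromal and dendritic sums were also higher in unconfined WKO without overlap, whereas the B lineage sums and the T and NK sums overlapped. The part of these cells in the difference was not tested.

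Amn1 and AI480526 were lower in WKO than in WT among confined libraries, without passing the threshold. Amn1 had a log2 fold change of -0.60 (SE 0.259, limma adjusted p 0.264), with 54.9, 89.5 and 87.5 in WKO against 122, 140 and 89.2 in WT. AI480526 had -0.49 (SE 0.255, limma adjusted p 0.367). In both, WT replicate 6 overlapped the WKO range. Bbs10 (0.18, SE 0.345, limma adjusted p 0.858), Mtcp1 (0.11, SE 0.276, limma adjusted p 0.891) and Lpar6 (-0.05, SE 0.222, limma adjusted p 0.945) showed differences smaller than their errors, which does not show that the genotypes are equal.

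Whether confinement acted differently in WKO and WT was asked with the interaction, the log2 effect in WKO minus that in WT. Its terms contain the contrasts that chose the 6. None of them passed (0 of 6, against 0% of all genes), and across all 12455 genes limma, edgeR and DESeq2 each called 0, with 258 genes (2.07%) at an unadjusted limma p under 0.05, none of them among the 6. AI480526 and Amn1 had the largest values in size, -0.73 (SE 0.403) and -0.72 (SE 0.409), followed by Mtcp1 at 0.45 (SE 0.436), F630028O10Rik at 0.41 (SE 0.429), Bbs10 at 0.31 (SE 0.546) and Lpar6 at -0.20 (SE 0.352). The limma adjusted p was 0.999 for each. The 3 transcripts called lower in WT had values above 0 and the 3 called lower in WKO alone had values below 0, as that choice favours, so nothing is read from the signs.

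**Figure D4:**
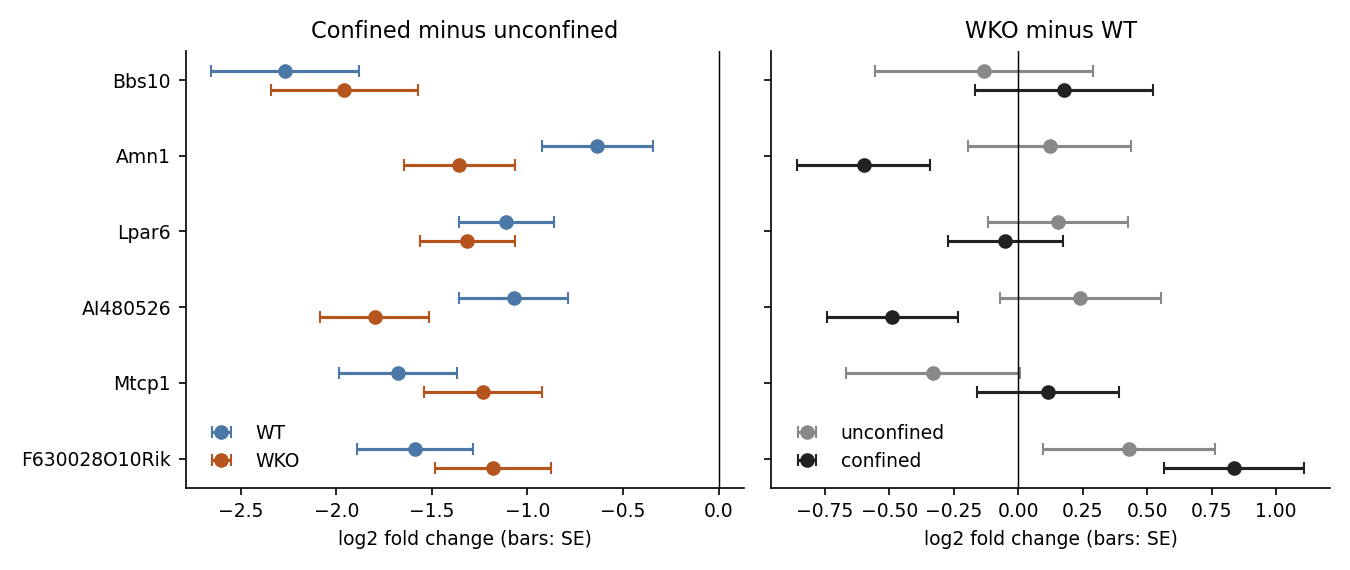
Log2 fold changes (horizontal axes, bars are SE) of the 6 transcripts for confined minus unconfined cells in each genotype (left) and for WKO minus WT in each condition (right). The left panel holds values from -2.27 to -0.63, and on the right F630028O10Rik in confined cells, at 0.84, lies farthest from 0.

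Genes of pathways linked to the transcripts other than AI480526, which has no list, and genes of mRNA turnover were followed from lists. P-values were adjusted over all genes tested. The Amn1 list rests on the role of the yeast protein, and a role of mouse Amn1 there was not tested. Of the 132 listed genes tested, 0 were called lower after confinement in either genotype by limma, edgeR or DESeq2. Limma called 0.265% of all genes lower in WT and 0.233% in WKO, so a 0 here is not read as a result. At an unadjusted limma p under 0.05, 5 in WT and 7 in WKO were lower, against 5.54% and 5.56% of all genes. In either direction limma called 1.16% of all genes after confinement in WT and 1.72% in WKO. Between genotypes it called 0.145% in unconfined and 2.59% in confined cells. For Bbs10, 21 of 21 BBSome, BBS chaperonin and CCT genes were tested and 0 were called in any contrast by limma or edgeR, with a median log2 fold change after confinement of -0.08 in WT and -0.02 in WKO; DESeq2 called 1, lower in WKO than in WT in confined cells. For Mtcp1, 17 of 20 TCL1 family and AKT activation genes were tested and 0 were called by limma or edgeR, with medians of 0.07 and 0.09; DESeq2 called 1 higher after confinement in each genotype. For Amn1, 14 of 14 genes of the NDR and LATS kinases and their partners, the mammalian counterparts of the mitotic exit network, were tested and 0 were called by limma, edgeR or DESeq2, with medians of 0.08 and 0.06; at an unadjusted limma p under 0.05 there was 1 lower in WT, and in WKO there were 5 higher and 1 lower, against 8.56% of all genes higher and 5.56% lower.

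For Lpar6, 12 of 16 genes of lysophosphatidic acid receptors, enzymes and G12/13 signalling were tested. By limma only Gna13, a G protein subunit of the G12/13 class, was called, and only after confinement in WKO, where its mean rose from 3823 ± 255 to 7247 ± 2112 (SD, n = 2 unconfined and 3 confined), a log2 difference of 0.89 (limma adjusted p 0.0321). In WT the means were 4185 ± 72.0 and 6645 ± 439 (SD, n = 2 and 3), 0.66 apart on that scale (limma adjusted p 0.130), and the interaction did not pass (limma adjusted p 0.999). Of the 9 tested of 12 P2Y-type receptors, P2ry2, a receptor for ATP and UTP, rose after confinement in WKO (log2 fold change 1.30, limma adjusted p 0.0257; in WT 0.63, limma adjusted p 0.338). Gpr34, a receptor for lysophosphatidylserine, was higher in WKO than in WT among confined cells (log2 fold change 1.28, limma adjusted p 0.0270), as were 1.38% of all genes. Of 22 alternatives, Gna13 passed in 14, P2ry2 in 17 and Gpr34 in 13, always in the same direction, and all 3 failed without either of the WKO unconfined libraries, WT confined replicate 2 or WT confined replicate 3.

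For F630028O10Rik, 6 of 6 transcription factors reported to act on the miR-223 locus were tested, among them Spi1 and Cebpa. Cebpb, a C/EBP factor induced in inflammation, rose after confinement in WT, with means of 1039 ± 689 and 3562 ± 402 (SD, n = 2 and 3) and a log2 difference of 1.95 (limma adjusted p 0.0218). In WKO its means were 904 ± 359 and 3315 ± 588 (SD, n = 2 and 3) and its log2 fold change 1.92 (limma adjusted p 0.0184), and the other 5 factors were not called. The Cebpb call held in 17 of 22 alternatives in WT, where edgeR and leaving out WT unconfined replicate 1 or any WT confined library ended it, and in 21 in WKO, where leaving out unconfined replicate 1 ended it. Of 17 reported targets of miR-223, all tested, Rhob, a small GTPase gene, rose after confinement in WKO (log2 fold change 1.06, limma adjusted p 0.0344; in WT 0.34, limma adjusted p 0.588) and the other 16 were not called by limma or edgeR in any contrast; DESeq2 called 3 higher after confinement in WKO and 1 lower in WKO than in WT in unconfined cells. The largest values in the list were those of the inflammasome gene Nlrp3, named here after its values were seen, at 1.77 in WT (limma adjusted p 0.0894) and 1.83 in WKO (limma adjusted p 0.0611). Rhob passed in 16 of 22 alternatives, and not without either WKO unconfined library, WT confined replicate 2 or WT confined replicate 3. The median of the targets was 0.15 in WT and 0.20 in WKO, against -0.01 over all tested genes in each.

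Genes of mRNA turnover were listed because a transcript can stand lower through decay as well as through synthesis, which these libraries do not separate. Of 36 tested genes for deadenylation, decapping and the exosome, 4 rose after confinement in each genotype (background 0.891% of all genes in WT and 1.49% in WKO) and 0 were lower. The list was chosen with earlier results of these data known, so these counts are a description and not a test of the list. All 4 encode adaptors of deadenylation or decapping. Btg2 rose by 2.08 in WT and 1.76 in WKO (limma adjusted p 0.0107 and 0.0228), Tob1 by 1.41 and 2.23 (0.00383 and 2.59e-04), Tob2 by 0.98 and 1.67 (0.0474 and 0.00213) and Pnrc1 by 1.31 and 1.29 (0.0376 and 0.0322), all on the log2 scale. Tob1 was also higher in WKO than in WT among confined cells (0.71, limma adjusted p 0.0483), a call kept in 7 of 22 alternatives. After confinement in WKO, Tob1 and Tob2 passed in all 22, Btg2 in 19 and Pnrc1 in 13; in WT, Tob1 and Btg2 passed in 20, Pnrc1 in 13 and Tob2 in 10. In WT none of the 4 passed without unconfined replicate 1 or without unconfined replicate 3, and edgeR called 2 of the 36. The median of the 36 was -0.05 in WT and -0.02 in WKO.

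Across the 10 libraries the 6 transcripts were correlated with each other, with Pearson's r of the log2 values between 0.61 and 0.94 over the 15 pairs (median 0.83). This is a description over libraries that share the confinement groups used in the choice. After removal of the group means, r lay between -0.56 and 0.70 (median 0.33), above 0 for 10 of 15 pairs. The lowest values on that measure were those of F630028O10Rik, with -0.56 against Mtcp1 and -0.50 against Bbs10. Deviations mirror each other in groups of 2 libraries. In WKO unconfined replicates 1 and 3 they were 0.47 and -0.47 for F630028O10Rik and -0.50 and 0.50 for Bbs10. The value against Bbs10 comes mostly from those libraries.

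For each transcript the 3 genes with the most similar pattern over the 10 libraries were taken among 10217 genes with a mean of at least 50. Group means were not removed here, so genes lower after confinement rank high through the groups used in the choice. No shared regulation is read from these values. Bbs10 was most like Fam193b (r = 0.96), Exoc1 (0.96) and Pcgf1 (0.96), and Mtcp1 was most like Bbs10 (0.94), Pcgf1 (0.94) and Xrcc1 (0.93). Lpar6 was most like Phaf1 (0.97), Zfp219 (0.96) and Rbm12b1 (0.96), and AI480526 like Klhl17 (0.97), Madd (0.95) and Ubox5 (0.95). Amn1 was most like Zfp61 (0.95), Shprh (0.93) and Platr25 (0.93), and F630028O10Rik like Irgm2 (0.97), an interferon-inducible GTPase gene, Rnf113a2 (0.96) and Zscan26 (0.95). The genes most like Bbs10 differed less between conditions than Bbs10 itself, with log2 fold changes in WT of -1.09 for Fam193b, -0.37 for Exoc1 and -0.73 for Pcgf1. Pcgf1, a Polycomb group gene, was among the 3 for both Bbs10 and Mtcp1.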

How the data were processed

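The file the authors deposited holds a signal for each of 57010 Ensembl identifiers in each library, namely its normalized read count. The submitters' processing notes name FastQC, Trim Galore, STAR, GRCm38 and mm10; the counting tool, its annotation and its use of strand are not given in the sources used here. In each library 100% of values were whole multiples of what 1 read is worth (tolerance 1e-06), so whole reads were recovered, and size factors recomputed with DESeq2 1.42.0 matched those behind the file within 1.67e-15. Such scaling removes depth, not composition, GC content or length.

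Groups came from the genotype and treatment labels, which name no batch. Log2(normalized read count + 1) of the 12455 genes with a mean of at least 10 was fitted with limma 3.58.1 (R 4.3.3), with 1 mean per group over all 10 libraries (6 residual degrees of freedom) and a mean-variance trend. Benjamini-Hochberg adjustment ran over all tested genes. Alternatives were edgeR 4.0.16 and DESeq2 on recovered reads, other scalings, filters and pseudocounts, a replicate block, and leaving out each library. The scripts were tested on simulated data.

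Locations, exons and GC content are from GENCODE M21 (GRCm38), which holds 98.9% of the tested genes and lacks 4981 identifiers of the table, so the counting annotation may differ from it. Similar transcripts were sought with blastn 2.17.0. The named genes are the 6 transcripts, called genes of each list (up to 5 by smallest p), and overlapping and nearest genes. The 3 most similar genes, Was, Tnf and Cxcl1 were also named. Abi3, Dynlt1c, Cd79b and ENSMUSG00000121184 stand beside the 6 in the order of falls, and Nlrp3 was added after its values were seen. The transcripts and lists were chosen with earlier results of these data known. The values of 1 marker list are not reported here.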

Additional observations from a re-analysis of the deposited data

How the results depend on the processing

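Counts depended on the setting, and the cause was not tested. In the order genotype unconfined, genotype confined, lower after confinement in WT and lower in WKO, the genes called were 18, 322, 33 and 29 with limma as described. DESeq2 called 179, 775, 119 and 97, the GC and length correction 69, 542, 80 and 60, and array weights 166, 1948, 118 and 648. Fitting only the 2 groups compared gave 189, 90, 102 and 1, and no filter beyond 1 read 10, 186, 24 and 65. Upper-quartile scaling gave 59 in WT and 52 in WKO; it moved the median of all genes from -0.01 to -0.12 in WKO (-0.08 in WT), a shift small beside the values of the 6. Leaving out 1 library gave 4 to 141, 58 to 701, 0 to 110 and 1 to 225. The interaction gave 0 genes under every setting run and has no fit with 2 groups.

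Of the 6 transcripts, 3 were called lower in WT and 4 in WKO. In WT this was 5 with DESeq2 and 1 with no filter; in WKO it was 2 with no filter and 0 with only 2 groups. Leaving out 1 library gave 0 to 5 in each genotype. Between genotypes in confined cells, 1 (F630028O10Rik) was called with DESeq2, with the GC and length correction, with array weights and without WKO confined replicate 1, and 0 without any other library. Between genotypes in unconfined cells 0 were called under every setting.

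Same-numbered libraries deviated from their group means with correlations between -0.11 and 0.08. Deviations mirror each other in groups of 2 libraries, so this does not settle whether the numbers pair libraries. The replicate block gave 245 genes between genotypes unconfined and 51 lower in WT, and with the GC and length correction 361 and 60; it left 1 of the 6 transcripts called in WT with and without that correction, and 2 in WKO with it. Under the block the confined genotype value changed sign to -0.044 for Bbs10, 0.0028 for Lpar6 and -0.082 for Mtcp1, and with the correction to -0.033, 0.25 and -0.099. The Lpar6 interaction was 0.025 with both. Array weights turned Bbs10 to -0.067 and Lpar6 to 0.10 in the confined genotype comparison.

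The confinement difference of each of the 6 kept its direction in both genotypes in every alternative. The 6 were picked for these falls, and their confined and unconfined libraries did not overlap. Leaving out a library could therefore not turn this difference, and nothing is read from the kept direction. Leaving out 1 library turned genotype and interaction values that had not passed. The unconfined genotype value then ran from -0.63 to 0.36 for Bbs10, -0.17 to 0.41 for Amn1, -0.050 to 0.36 for Lpar6 and -0.038 to 0.90 for F630028O10Rik. The confined one ran from -0.11 to 0.34 for Bbs10, -0.29 to 0.15 for Lpar6 and -0.082 to 0.39 for Mtcp1. The interaction ran from -0.18 to 0.81 for Bbs10, -0.44 to 6.2e-05 for Lpar6 and -0.059 to 0.88 for F630028O10Rik. The Bbs10 difference in WKO was -2.45 without unconfined replicate 1 and -1.46 without replicate 3. Depth limits Bbs10 and Mtcp1 most, with as few as 23 and 28 reads in a library.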

Other observations

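The 6 genes called lower after confinement in both genotypes by limma (0.0482% of those tested) hold only Bbs10 of the transcripts above; the others were named after their values were seen. Ogt, the enzyme that adds N-acetylglucosamine to nuclear and cytosolic proteins, had a mean of 3756 normalized read counts and log2 fold changes of -0.98 in WT and -0.88 in WKO. Rsrp1, with a mean of 5005, had -0.99 and -0.84. Zkscan3, a zinc finger gene, had -0.77 and -0.93, Fam193b -1.09 and -0.86, and the unnamed ENSMUSG00000121184 -1.64 and -1.87. Bbs10, with a mean of 73.5, was the least abundant of the 6 and the furthest from 0 in both genotypes (-2.27 and -1.96).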
